A study of Mus musculus with 2 samples.

Results

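Osteopontin, encoded by Spp1, and the genes of the receptors it binds were followed through the cell classes of injured mouse kidneys: Cd44 and the integrin chains Itgav, Itgb1, Itgb3 and Itgb5. These 6 of the 32285 genes counted were chosen by name. The data were single-cell RNA counts from 2 libraries of kidneys taken at day 14 after ischemia-reperfusion injury of 1 kidney. The control library came from mice of genotype Cre-. The haplodeficient library came from Cdh5-CreERT2; Phd3f/+ mice, in which Cre that tamoxifen activates is driven by the endothelial cadherin gene Cdh5 and 1 allele of the oxygen-sensing hydroxylase PHD3 (gene Egln3) is floxed. Both groups received 4 tamoxifen injections after the injury, and both carried batch number 1. Whether control mice carried the floxed allele, and the number of animals behind each library, was not given in the sources used here.

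Osteopontin is a secreted acidic phosphoprotein of the extracellular matrix and of urine. Its RGD sequence binds integrins made of the alpha-v chain (Itgav) with the beta chains Itgb1, Itgb3 or Itgb5, and it has also been described as a ligand of Cd44, the main surface receptor for hyaluronan. In the kidney it is made by tubule cells, rises after injury, and is also a product of macrophages. Integrins are dimers, so the RNA of 1 chain does not give the amount of a receptor, and 3′-end counts do not separate the splice forms of Cd44.

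All 6 genes are protein-coding and were present under their own symbols in both libraries. On GRCm38 with GENCODE M21, Spp1 (ENSMUSG00000029304) lies at chr5:104435118-104441050 on the plus strand, where the annotation also has Gm42793 on the same strand. Cd44 (ENSMUSG00000005087) lies at chr2:102811141-102901665 on the minus strand, and Itgav (ENSMUSG00000027087) at chr2:83724397-83806916 on the plus strand. The beta chain genes are all on plus strands: Itgb1 (ENSMUSG00000025809) at chr8:128685654-128733200, Itgb3 (ENSMUSG00000020689) at chr11:104608000-104670476 and Itgb5 (ENSMUSG00000022817) at chr16:33829665-33949338.

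The control library held 134190236 counts of unique molecular identifiers (UMIs, single captured RNA molecules) and gave 8737 cells with a median of 8762 UMIs. The haplodeficient library held 114668145 UMIs and gave 9222 cells with a median of 5471.5 UMIs. The median mitochondrial share was 10.2% in control and 2.69% in haplodeficient cells, and 28 barcodes that passed the filters occurred in both libraries. Cells were grouped without the 6 genes and called "X-like" from marker genes, which gave 15 classes of at least 50 cells in each library, plus 4 unnamed clusters that are called by their leading genes. In every class at least 7 markers were 2-fold or more above other cells in both libraries. Egln3 was at 24.2 CPM (counts per 1000000 UMIs of the class; 95% interval 18.4 to 31.3) in control and 21.1 CPM (17.4 to 25.4) in haplodeficient endothelial-like cells. The deleted exons are not given, so 3′-end tags may lie outside them and this does not check the labels. With 1 library per group there is no test between groups: intervals given are exact 95% intervals that cover counting error only, and every difference is between these 2 libraries, not shown for the genotypes.

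Spp1 was highest in tubule classes. Injured proximal tubule-like cells, which carry Havcr1 (the injury marker KIM-1), had the highest level of the 15 classes and 4 clusters in both libraries, at 30421 CPM in control and 25220 CPM in haplodeficient cells. Next came the cluster led by Psca and Mmp7 at 18939 and 23094 CPM, then descending thin limb-like cells at 17103 and 22237 CPM. Thick ascending limb-like cells, which build the salt gradient of the medulla, had 12607 and 17727 CPM, and distal convoluted tubule-like cells had 11628 and 14167 CPM. Acid-base transporting intercalated cell-like cells had 13214 and 9064 CPM. Unnamed clusters with all 9 listed intercalated markers, and with markers of principal or connecting tubule cells, were lower. The one led by Atp6v1g3 and Syn2 (115 and 180 cells) had 4854 and 4311 CPM. The one led by Slc26a4 and Hmx2 (132 and 60 cells) had 6712 and 6623 CPM. Their cells were deeper, with medians of 26598 and 31601 UMIs in the first and 22955.5 and 31662 in the second. The named class (149 and 91 cells) had medians of 8948 and 9044 UMIs. The injured cells stood above the class of proximal tubule-like cells, which had 4966 and 6936 CPM, and above principal or connecting tubule-like cells at 4070 and 5141 CPM.

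**Figure D1:**
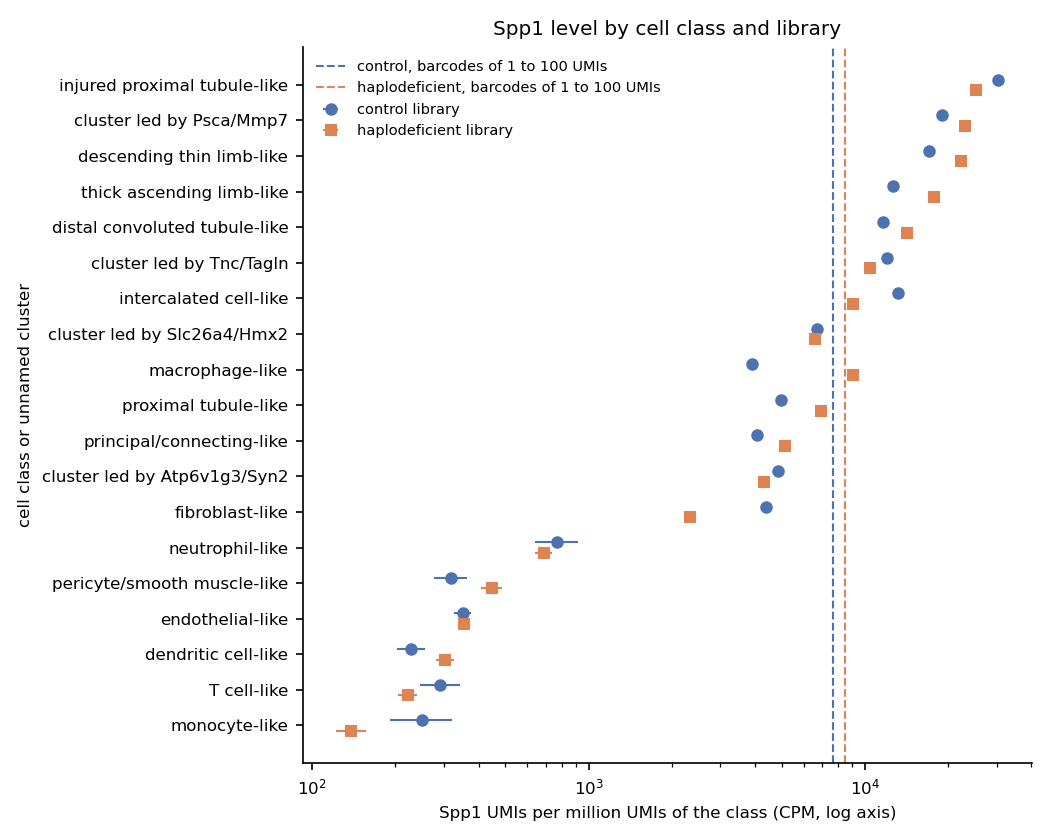
Spp1 level in CPM (log axis) for each cell class or unnamed cluster. Circles are the control and squares the haplodeficient library, lines are exact 95% counting intervals, and dashed lines are the level in barcodes of 1 to 100 UMIs. Tubule classes lie at the right, and monocyte-like, T cell-like, dendritic cell-like, endothelial-like and pericyte or smooth muscle-like cells lie far below the dashed lines.

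The unnamed cluster led by Tnc and Tagln had 12033 CPM in control and 10460 CPM in the haplodeficient library. It carried markers of podocytes, such as Nphs1 and Wt1, and of pericytes or smooth muscle. Among the named classes outside the tubule, Spp1 was at 3915 CPM in control and 9092 CPM in haplodeficient macrophage-like cells. Fibroblast-like cells had 4373 and 2326 CPM. Neutrophil-like cells had 769 and 689 CPM. The remaining classes, which were endothelial-like, pericyte or smooth muscle-like, monocyte-like, dendritic cell-like and T cell-like cells, had 228 to 350 CPM in control and 138 to 446 CPM in haplodeficient cells. In the control order the intervals of neighbouring classes overlapped along the row from endothelial-like through pericyte, T cell-like and monocyte-like to dendritic cell-like cells, and nowhere above it. In the haplodeficient order only macrophage-like and intercalated cell-like cells overlapped.

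Free Spp1 was high in both suspensions. Barcodes of 1 to 100 UMIs, which hold RNA released from broken cells, carried 48668 Spp1 UMIs of 6363410 in control and 46721 of 5499352 in the haplodeficient library. This was 7648 and 8496 CPM, rank 12 and rank 8 among all genes, and 0.794 and 0.750 times the level in cells. The ratio of the haplodeficient over the control free level was 1.11 (1.10 to 1.13) and changed direction with the UMI range: it was 1.41 (1.38 to 1.43) in barcodes of 1 to 50 UMIs and 0.919 (0.904 to 0.935) in barcodes of 10 to 100 UMIs. The free level of the receptor genes was 54.5 and 83.3 CPM for Cd44, 210 and 272 CPM for Itgav, 124 and 203 CPM for Itgb1, 1.26 and 4.91 CPM for Itgb3, and 44.9 and 63.1 CPM for Itgb5.

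In 5 of 15 classes the Spp1 level lay above the free level in both libraries: injured proximal tubule-like, descending thin limb-like, thick ascending limb-like, distal convoluted tubule-like and intercalated cell-like cells. Intercalated cell-like cells were not among them under 6 alternatives, which were a mitochondrial limit of 25%, doublets kept, Leiden resolution 2, each cell named alone, the same cluster weights and thinned cells. The unnamed clusters led by Atp6v1g3 and Syn2 and by Slc26a4 and Hmx2 lay below the free level in both libraries. With the libraries clustered separately, 4 of the 14 classes compared lay above the free level. Descending thin limb-like cells were not compared there, because they did not form a class of enough cells in both libraries. A class can also make Spp1 below that level, so the free part was estimated from the markers of other classes found in it. The estimated free part was 1.02% of the Spp1 level in control and 0.972% in haplodeficient injured proximal tubule-like cells, and at most 4.77% in the other 4. In macrophage-like cells it was 23.3% in control and 5.13% in haplodeficient cells. In endothelial-like cells the estimate was 121% and 161% of the level, and in T cell-like cells 106% and 96.3%. Spp1 in endothelial-like, T cell-like, pericyte or smooth muscle-like (118% and 97.9%), monocyte-like (280% and 139%) and dendritic cell-like cells (81.3% and 80.5%) was therefore read as background, and so were its ratios there. Neutrophil-like cells lay between, at 71.5% and 45.3%.

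Of all Spp1 UMIs in cells, injured proximal tubule-like cells held 26.5% in control and 10.6% in the haplodeficient library, while they made up 6.02% and 2.82% of cells. Proximal tubule-like cells held 17.99% and 2.57%, thick ascending limb-like cells 11.98% and 24.2%, and descending thin limb-like cells 10.4% and 18.7%. Macrophage-like cells held 2.27% in control and 9.53% in the haplodeficient library. Such shares depend on how many cells of each class were caught: proximal tubule-like cells were 3047 and 367, and in proximal tubule-like cells the median mitochondrial share was 22.7% and 6.95%. Whether that reflects the tissue or the survival of cells in the suspension was not tested.

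**Figure D2:**
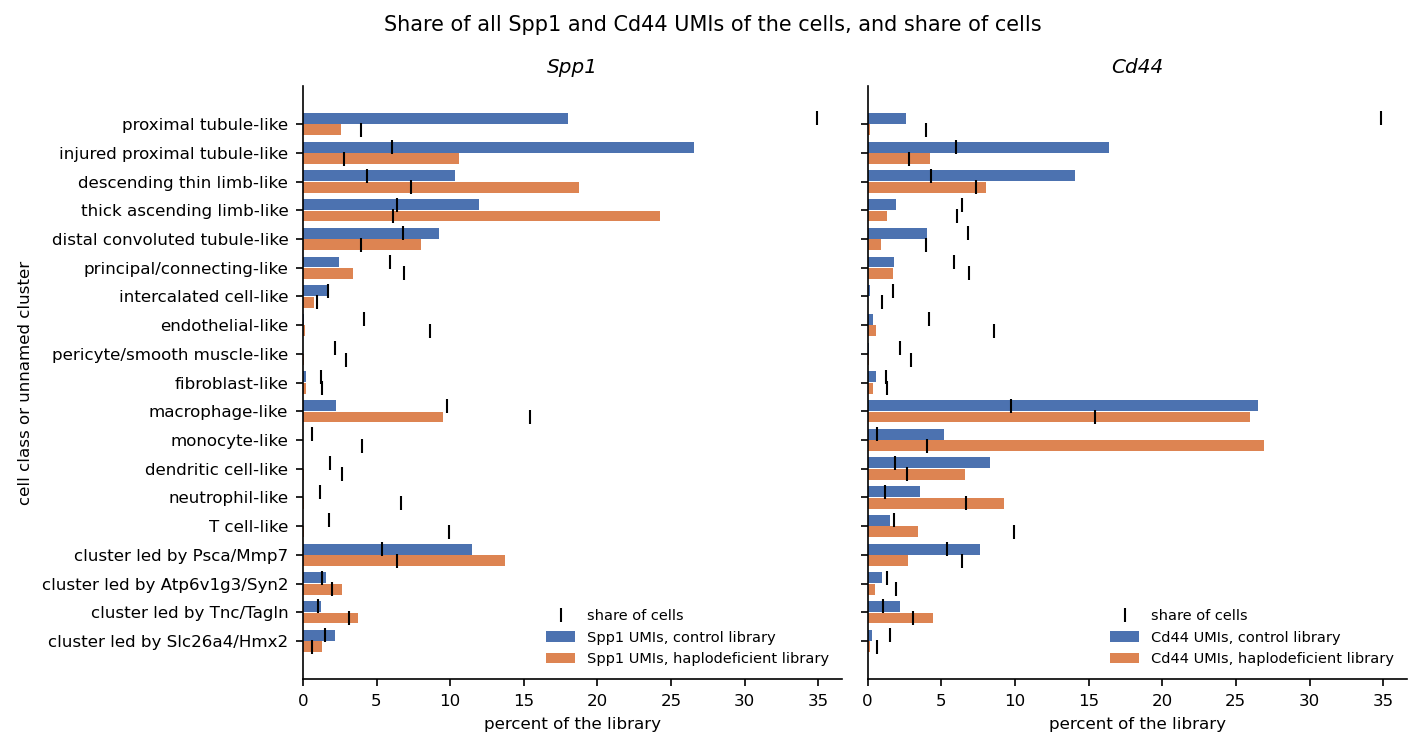
Percent of all Spp1 UMIs (left) and Cd44 UMIs (right) of the cells held by each class or cluster, as bars from 0 for the control and haplodeficient library, with a tick at the percent of cells in it. Injured proximal tubule-like cells hold 26.5% and 10.6% of Spp1 UMIs, and macrophage-like cells hold 26.5% and 25.9% of Cd44 UMIs.

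To compare single cells at one depth, 1000 UMIs were drawn from every cell that had as many (termed thinning), and the rest were set aside. The median injured proximal tubule-like cell then had 25 Spp1 UMIs in control (522 cells) and 17 in the haplodeficient library (258 cells), and 98.9% and 99.2% of these cells had at least 1 (99.4% and 99.6% before thinning). The median thick ascending limb-like cell had 7 and 15, and the median proximal tubule-like cell 2 and 4. Spp1 was thus found in nearly every cell of the injured, thin limb, thick limb and distal classes. Within the injured class, cells with a Havcr1 UMI had on average 37.7 Spp1 UMIs per 1000 in control (205 cells) and 29.5 in the haplodeficient library (51 cells), and cells without one had 25.2 and 21.7. Within descending thin limb-like cells the means with and without a Havcr1 UMI were 28.5 and 16.5 in control and 33.1 and 22.0 in haplodeficient cells. The mean was higher in cells with Havcr1 in both classes and both libraries, and these cells were not independent samples.

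In some classes a few cells held much of the Spp1, also within the tubule. In intercalated cell-like cells 1 of 149 control cells held 5.95% of the Spp1 UMIs, and 14 cells held 50%. In the haplodeficient library 1 of 91 such cells held 16.2%, and 6 cells held 50%, so the level there rests on few cells. In proximal tubule-like cells 1 cell held 1.19% in control and 7.61% in the haplodeficient library. In fibroblast-like cells 1 of 110 control cells held 1109 of 2516 Spp1 UMIs (44.1%), and 1 of 122 haplodeficient cells held 252 of 2135 (11.8%). The ratio of 0.532 (0.502 to 0.564) in that class therefore rests on a handful of cells. In endothelial-like cells 1 cell held 40.8% of the UMIs in control and 39.0% in the haplodeficient library. In macrophage-like cells 16 of 852 control and 25 of 1423 haplodeficient cells held 50% of the UMIs, whereas injured proximal tubule-like cells needed 98 of 526 and 31 of 260.

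A difference between the libraries was called when log2 of the CPM ratio, with 5 CPM added to both levels, was at least 1 in size and the counting intervals did not overlap. It was read only for genes with a mean of 50 CPM and 30 UMIs, which left 62 of the 90 pairs of a member gene and a class. Of these, 1 pair was higher and 1 was lower in the haplodeficient library, against 0.920% of 50093 pairs of all genes and classes higher and 1.31% lower. Both shares of the member pairs are small counts, and 31 pairs lay above and 31 below 0.

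The pair called higher was Spp1 in macrophage-like cells. Its level was 3915 CPM (3865 to 3965; 23389 UMIs) in 852 control cells and 9092 CPM (9036 to 9148; 101077 UMIs) in 1423 haplodeficient cells, a ratio of 2.32 (2.29 to 2.36) and a log2 ratio of 1.21. Over 15 alternatives in the processing the log2 ratio lay between 0.99 and 1.68. In this class 0.381% of 2885 genes were called higher. Markers of tubule cells were also found in the class: 42 markers of 4 tubule classes summed to 1477 CPM in control and 717 CPM in haplodeficient macrophage-like cells, with 42 and 41 of them detected, and Tmem207 at 0 in the latter. The lists differed: proximal tubule markers summed to 719 and 140 CPM, where their free level was 17380 and 1400 CPM, and descending thin limb markers to 231 (219 to 244) and 220 (211 to 229) CPM, where their free level was 503 and 807 CPM. Injured proximal tubule markers summed to 351 and 284 CPM and thick ascending limb markers to 176 and 73.7 CPM. The part of tubule RNA in the Spp1 ratio was not tested.

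The share of macrophage-like cells with a Spp1 UMI was not higher in the haplodeficient library. After thinning it was 42.8% (39.4 to 46.3) of 810 control cells and 40.6% (37.96 to 43.4) of 1299 haplodeficient cells, and before thinning 78.5% and 67.1%, with 42 control and 124 haplodeficient cells left out as too shallow. Free RNA was estimated at 11.9% of all UMIs of the class in control and 5.49% in the haplodeficient library. A single Spp1 UMI can be free RNA, so these shares, and those split by Gpnmb below, do not count the cells that make Spp1. T cell-like cells, whose Spp1 was not told apart from background, had 26.5% of 151 and 13.1% of 900 after thinning. The upper end differed: 4.94% of control and 9.85% of haplodeficient macrophage-like cells had at least 10 Spp1 UMIs per 1000, and the 90th percentile was 3 and 9 UMIs. The median was 0 in both.

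Spp1 differed widely between the 4 clusters of macrophage-like cells. The cluster led by Gpnmb and Fabp5, genes of lipid-laden macrophages, had 6003 CPM (11616 UMIs, 166 cells) in control and 14825 CPM (81286 UMIs, 417 cells) in the haplodeficient library. The cluster led by Ccl12 and Ccl8, which also carried the mannose receptor gene Mrc1, had 507 and 456 CPM in 576 and 726 cells. Dividing macrophage-like cells had 8320 and 11274 CPM in 64 and 82 cells, but 1 haplodeficient cell held 23.2% of their Spp1 UMIs in that library, and the mean Spp1 after thinning was 6.56 and 6.64 UMIs per 1000. The 42 tubule markers summed to 2725 and 1719 CPM there. A cluster of shallow cells led by Aif1 had 1461 and 2774 CPM in 46 and 198 cells, with 1 haplodeficient cell holding 49.0% of the latter's UMIs. The clusters with the highest Spp1 were thus the lipid-associated and the dividing ones in both libraries.

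The Gpnmb-led cluster made up 19.5% (16.9 to 22.3) of control and 29.3% (26.9 to 31.7) of haplodeficient macrophage-like cells. With the clusters given the same weights in both libraries, the log2 ratio of the class was 0.99, which is below the size called. Within the Gpnmb-led cluster the mean was 4.49 and 10.4 Spp1 UMIs per 1000, the median 1 and 2, and 13.9% and 24.5% of cells had at least 10. In that cluster 10 of 166 control and 20 of 417 haplodeficient cells held 50% of the Spp1 UMIs. The 42 tubule markers there summed to 1091 and 392 CPM, with 40 and 39 detected, while they made up 20780 and 4938 CPM of free RNA. By list, proximal tubule markers summed to 685 and 98.3 CPM there, descending thin limb markers to 207 and 172 CPM, thick ascending limb markers to 137 and 41.4 CPM, and injured proximal tubule markers to 61.5 and 80.1 CPM.

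Among thinned macrophage-like cells with a Gpnmb UMI, 75.3% of 73 control cells and 86.1% of 223 haplodeficient cells had a Spp1 UMI, with means of 5.66 and 16.5 per 1000. Without a Gpnmb UMI the shares were 39.6% of 737 and 31.2% of 1076, with means of 1.42 and 1.54. Split by Trem2, a lipid receptor gene of the same macrophages, the means were 2.51 and 7.41 in cells with a UMI and 1.46 and 1.89 in cells without. The difference between the libraries was thus larger in cells with either gene than in cells without it, and no test of that is possible with 1 library each.

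**Figure D3:**
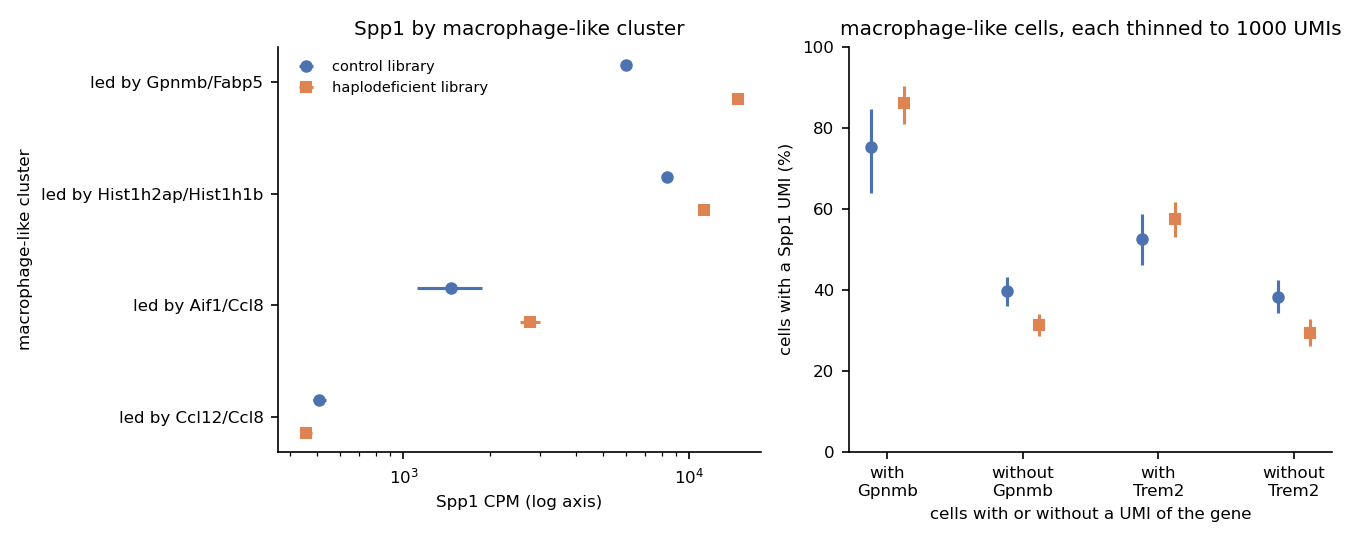
Left, Spp1 CPM (log axis) in the 4 clusters of macrophage-like cells, control as circles and haplodeficient as squares, with exact 95% counting intervals. Right, percent of macrophage-like cells with a Spp1 UMI after thinning to 1000 UMIs, by whether the cell had a Gpnmb or a Trem2 UMI, with exact binomial 95% intervals. The Gpnmb-led cluster lies at 6003 and 14825 CPM and the Ccl12-led one at 507 and 456 CPM.

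No tubule class passed the size called for Spp1, and the directions were mixed. The ratio was 0.829 (0.823 to 0.835) in injured proximal tubule-like cells and 0.686 (0.668 to 0.704) in intercalated cell-like cells. In the unnamed clusters led by Atp6v1g3 and Syn2 and by Slc26a4 and Hmx2 the ratio was 0.888 (0.871 to 0.905) and 0.987 (0.966 to 1.008). It was 1.41 (1.40 to 1.42) in thick ascending limb-like, 1.40 (1.38 to 1.41) in proximal tubule-like, 1.30 (1.29 to 1.31) in descending thin limb-like, 1.26 (1.24 to 1.28) in principal or connecting tubule-like and 1.22 (1.21 to 1.23) in distal convoluted tubule-like cells. Of the 15 classes, Spp1 was higher in 9 and lower in 6, and the interval excluded 1 in 8 and 5 of them. These counts include the classes whose Spp1 was not told apart from background, and no share of all genes was taken beside them. In injured proximal tubule-like cells the log2 ratio was -0.27, and 0.31 when the libraries were clustered separately, so its direction depended on how the class was drawn. The median log2 ratio of all genes was 0.21 in proximal tubule-like, 0.13 in thick ascending limb-like and 0.12 in distal convoluted tubule-like cells, whose mitochondrial share was higher in control. With mitochondrial genes left out of the sum, the Spp1 log2 ratio in thick ascending limb-like cells was 0.33 in place of 0.49, and the Spp1 log2 ratio in distal convoluted tubule-like cells was 0.15 in place of 0.28.

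In some of these classes different clusters lay behind the level. Intercalated cell-like cells were mostly of the cluster led by Aqp6 and Slc4a1 in control (83 of 149 cells) and of the cluster led by Atp6v1g3 and Pde1c in the haplodeficient library (64 of 91). Both clusters were lower in the haplodeficient library, at 6631 and 2631 CPM in the first and 18832 and 10875 CPM in the second. Principal or connecting tubule-like cells split in direction: the cluster led by Sprr2f had 4434 and 5389 CPM, and the one led by Aqp2, the water channel of principal cells, had 3673 and 2176 CPM. In proximal tubule-like cells the largest cluster was led by Gm42397 and Slc22a6 in control (929 cells, 4460 CPM) and by Spp2 and Dnase1 in the haplodeficient library (145 cells, 10155 CPM). Within these clusters the levels of the other library were 3055 and 6307 CPM, so that the first was lower and the second higher in the haplodeficient library. Endothelial-like cells were mainly of a cluster led by Cldn5 and Sox17 in control (150 of 363 cells) and of a capillary cluster led by Plvap and Rgcc in the haplodeficient library (342 of 794).

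Cd44 was highest in myeloid cells. Neutrophil-like cells had 1484 CPM in control and 890 CPM in the haplodeficient library, a ratio of 0.5998 (0.521 to 0.692). Monocyte-like cells had 1441 and 1675 CPM, a ratio of 1.16 (1.04 to 1.30) on 353 and 3075 UMIs. In control these 2 classes overlapped, and in the haplodeficient library monocyte-like cells were higher. Dendritic cell-like cells followed with 435 and 353 CPM, macrophage-like cells with 303 and 267 CPM, and T cell-like cells with 220 and 140 CPM.

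Among the named tubule classes Cd44 was found mainly in descending thin limb-like cells, at 155 and 103 CPM (ratio 0.667, 0.609 to 0.731), and in injured proximal tubule-like cells, at 125 and 109 CPM. The unnamed cluster led by Psca and Mmp7 had 83.9 and 49.9 CPM, and the one led by Tnc and Tagln had 148 and 134 CPM. The class of proximal tubule-like cells had 4.72 and 4.32 CPM. Thinned to 1000 UMIs, 10.5% of injured proximal tubule-like and 0.522% of proximal tubule-like control cells had a Cd44 UMI, and 6.59% and 1.15% of haplodeficient ones. In the injured class, 14.6% of control cells with a Havcr1 UMI and 7.89% of those without had a Cd44 UMI, and the intervals of these shares overlapped (10.1 to 20.2 and 5.17 to 11.4). Endothelial-like cells had 10.4 and 12.5 CPM, and fibroblast-like cells 71.3 and 42.5 CPM.

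Cd44 passed the minimum in 8 classes, was lower in the haplodeficient library in 7 of them and was called in none. Over all 15 classes, those below the minimum included, 12 ratios lay below 1. The interval excluded 1 in 9 of these, and no share of all genes was taken beside that count. With cells thinned to 1000 UMIs 7 ratios lay below 1 and 8 above, and with the libraries clustered separately 7 and 7 of 14. In injured proximal tubule-like cells the log2 ratio was -0.19, but 0.07 with a mitochondrial limit of 25% and 1.13 with the libraries clustered separately. After thinning, 15.6% (13.1 to 18.2) of control and 15.5% (13.6 to 17.6) of haplodeficient macrophage-like cells had a Cd44 UMI (45.3% and 43.9% before), while neutrophil-like cells had 67.7% (57.4 to 76.9) and 49.9% (45.7 to 54.1; 76.7% and 64.2% before). Within macrophage-like cells the Gpnmb-led cluster had the highest level, at 516 and 347 CPM, and was lower in the haplodeficient library, where its Spp1 was higher. Among T cell-like cells the cluster led by Cd40lg and Ctla4, genes of helper and regulatory cells, had 278 and 207 CPM, and the one led by Cd8b1 had 89.6 and 89.4 CPM.

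**Figure D4:**
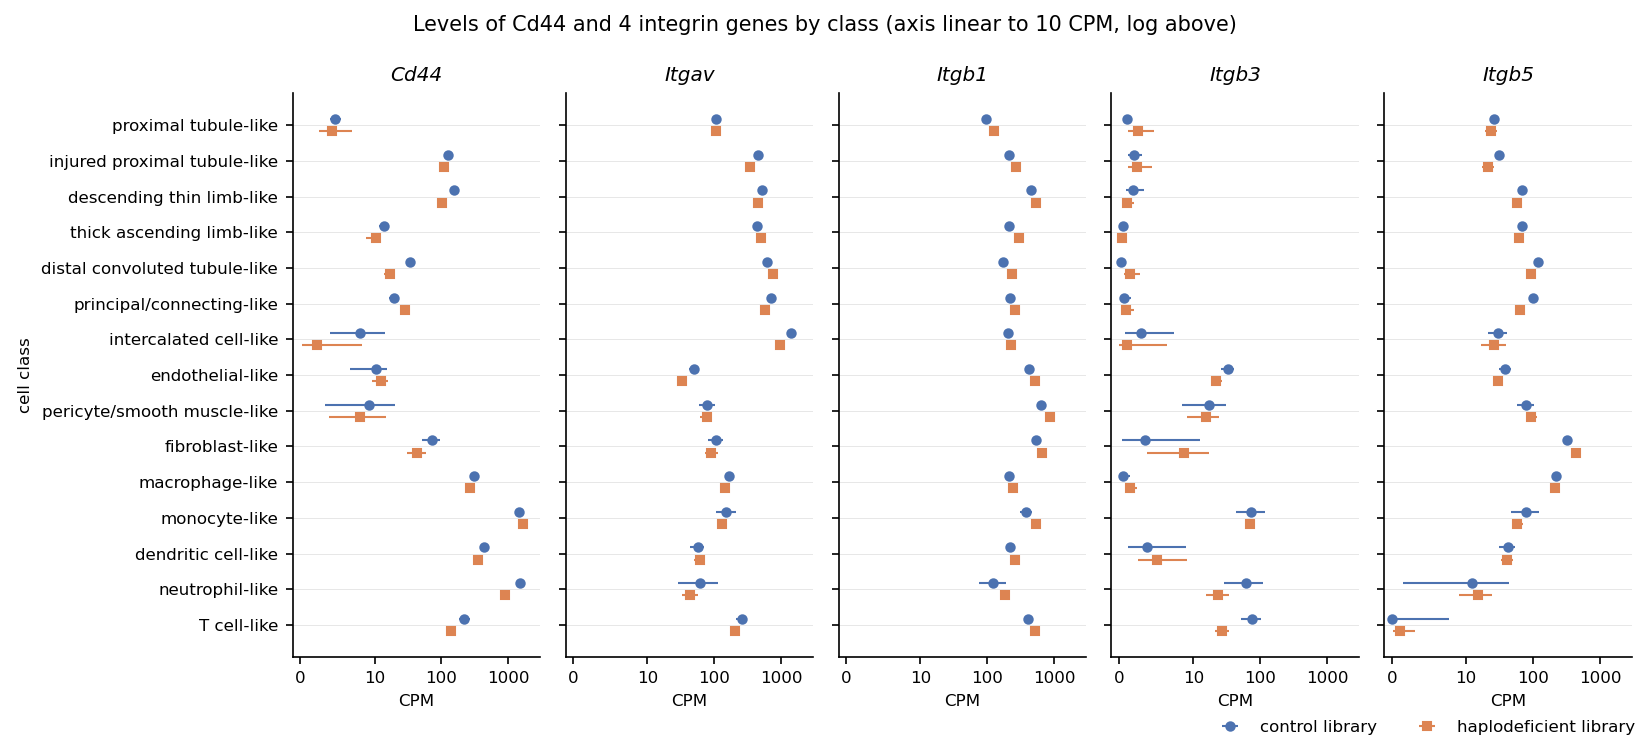
Levels of Cd44, Itgav, Itgb1, Itgb3 and Itgb5 in CPM (linear to 10 CPM, log above) in the 15 classes, control as circles and haplodeficient as squares, with exact 95% counting intervals. Cd44 peaks in neutrophil-like and monocyte-like cells, Itgav in intercalated cell-like cells, Itgb1 is found in every class, Itgb3 is low outside monocyte-like, T cell-like, neutrophil-like and endothelial-like cells, and Itgb5 peaks in fibroblast-like and macrophage-like cells.

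Itgav, the alpha-v chain shared by the osteopontin-binding integrins, was highest among the 15 classes in intercalated cell-like cells, at 1380 CPM in control and 943 CPM in the haplodeficient library (ratio 0.683, 0.629 to 0.742). The cluster led by Atp6v1g3 and Syn2 and the one led by the anion exchanger gene Slc26a4 and Hmx2 had 1089 and 1021 CPM and 1043 and 1174 CPM, above the intercalated cell-like class in the haplodeficient library. Principal or connecting tubule-like cells had 713 and 563 CPM, distal convoluted tubule-like cells 614 and 750 CPM, descending thin limb-like cells 520 and 456 CPM, and injured proximal tubule-like cells 455 and 337 CPM (ratio 0.740, 0.697 to 0.785). The log2 ratio in that injured class was -0.43, and 0.37 with the libraries clustered separately. The class of proximal tubule-like cells had 105 and 107 CPM. Itgav was lowest in endothelial-like cells at 49.7 and 32.5 CPM. It was called in no class. The ratio lay above 1 in 4 and below 1 in 11 classes, but above 1 in 9 and below 1 in 6 with doublets kept. In macrophage-like cells (166 and 143 CPM) only 7 of 15 alternatives kept the direction below 1.

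Itgb1, the beta chain of collagen, laminin and fibronectin receptors, was found in every class, from 97.1 CPM in proximal tubule-like to 627 CPM in pericyte or smooth muscle-like control cells. In the haplodeficient library the same classes had 125 and 867 CPM. Fibroblast-like cells had 532 and 648 CPM, endothelial-like cells 414 and 513 CPM, descending thin limb-like cells 451 and 543 CPM, and T cell-like cells 409 and 521 CPM. The ratio was above 1 in all 15 classes, between 1.13 (intercalated cell-like, 0.934 to 1.36) and 1.54 (neutrophil-like, 0.971 to 2.56). The interval excluded 1 in 13, and no share of all genes was taken beside that count. With each cell thinned to 1000 UMIs the ratio was above 1 in 14 classes and below 1 in fibroblast-like cells. It stayed above 1 in all classes under the other 14 alternatives. Among these, the alternatives that changed only the minimum or the added CPM could not change a direction. Itgb1 was called in no class. Of 1049 genes that passed the minimum in all 15 classes, 22.5% were likewise above 1 in every class and 3.24% were below 1 in every class, so a uniform direction was common among broadly expressed genes. The Itgb1 level in free RNA was also higher in the haplodeficient library, by 1.63 (1.48 to 1.79), and the part of free RNA and of library composition in these ratios was not tested.

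Itgb3, the beta chain that pairs with alpha-v and, on platelets, with Itga2b, was rare, with 300 UMIs in all control and 578 in all haplodeficient cells. The highest levels were in monocyte-like cells, at 73.5 and 70.8 CPM (18 and 130 UMIs), and in T cell-like cells, at 74.7 and 27.0 CPM (36 and 76 UMIs). Endothelial-like cells had 33.0 and 22.0 CPM, and within them the arterial cluster led by Stmn2 and Fbln5 had 80.3 and 58.2 CPM. Neutrophil-like cells had 60.6 and 23.6 CPM on only 10 and 28 UMIs and did not reach the minimum. Macrophage-like cells had 0.502 and 1.53 CPM, and no tubule class exceeded 2.92 CPM.

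The pair called lower was Itgb3 in T cell-like cells, with a ratio of 0.362 (0.240 to 0.554) and a log2 ratio of -1.32, where 1.52% of 3088 genes were called lower. The cluster led by Cd40lg and Ctla4 had 114.5 CPM (28 UMIs) in control and 41.1 CPM (53 UMIs) in the haplodeficient library, and the cluster led by Cd8b1 had 25.6 and 17.2 CPM. The 5 platelet genes Itga2b, Gp9, Gp1bb, Ppbp and Treml1 summed to 0 and 1 UMI in T cell-like cells, and a part of platelet RNA in the Itgb3 ratio was not tested. Over 15 alternatives the log2 ratio lay between -1.43 and -1.06, past the size called in each. The mean of its levels of 74.7 and 27.0 CPM lay just above the minimum of 50 CPM. The pair was called in 12 of the 15 alternatives. It was not called with a mitochondrial limit of 25%, a minimum of 1000 UMIs per cell or doublets kept, and the cause was not tested.

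Itgb5, the beta chain of an alpha-v integrin that binds vitronectin, was highest in fibroblast-like cells at 325 and 434 CPM (ratio 1.33, 1.12 to 1.60) and in macrophage-like cells at 219 and 210 CPM (0.957, 0.894 to 1.02). Principal or connecting tubule-like cells had 101 and 64.3 CPM (0.640, 0.565 to 0.723), and distal convoluted tubule-like cells 120 and 92.3 CPM (0.769, 0.692 to 0.854). T cell-like cells had 0 and 3 UMIs. Among the macrophage-like clusters, the Gpnmb-led one had 310 and 268 CPM. Itgb5 passed the minimum in 8 classes, was below 1 in 6 and above 1 in 2 of them, and was called in none. Over all 15 classes its ratio was below 1 in 11. It was below 1 in 8 with cells thinned to 1000 UMIs and in 9 with a mitochondrial limit of 25%.

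**Figure D5:**
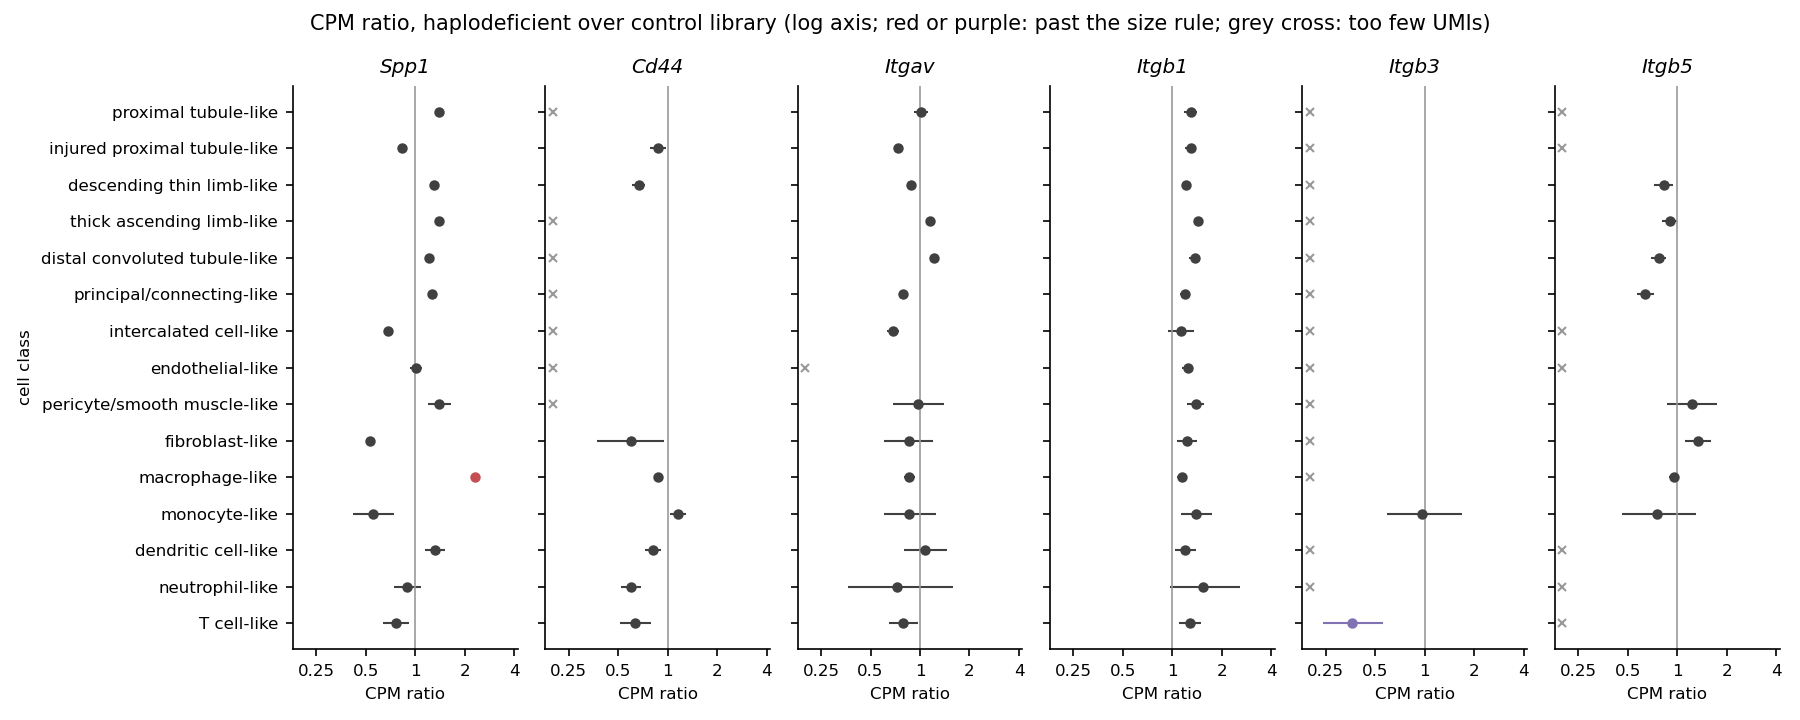
Ratio of the haplodeficient over the control CPM (log axis) for each of the 6 genes in the 15 classes, with exact 95% counting intervals. A grey cross marks a pair below the minimum of 50 CPM and 30 UMIs. The red point is Spp1 in macrophage-like cells at 2.32, the purple point is Itgb3 in T cell-like cells at 0.362, and all 15 Itgb1 points lie to the right of 1 (14 with cells thinned to 1000 UMIs).

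The other genes of the pathway, from lists of partners, ligands, enzymes and linkers, gave few differences of the size called. Of the 11 alpha chains that pair with Itgb1, 41 pairs of a gene and a class passed the minimum, 13 above and 28 below 0. The 1 pair called was Itga6, a laminin receptor chain, in injured proximal tubule-like cells, at 276 CPM in control and 126 CPM in the haplodeficient library (log2 ratio -1.10), where 0.554% of genes were called lower. Only 2 alpha chains were measured in that class, and Itga6 is 1 of them. Their median log2 ratio of -0.58, against 0.03 for all genes that passed there, therefore does not describe the alpha chains as a set. The other partners (Itgb6, Itgb8 and Itga2b) gave 10 pairs, 1 above and 9 below 0, and none called.

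Of 10 other ligands of alpha-v integrins, 35 pairs passed the minimum, 17 above and 18 below 0, and both called pairs were of Thbs1, thrombospondin 1, in opposite directions. In monocyte-like cells Thbs1 was at 110 CPM (27 UMIs) in control and 236 CPM (434 UMIs) in the haplodeficient library, a log2 ratio of 1.07, where 1.96% of genes were called higher. In dendritic cell-like cells it was at 108 and 33.6 CPM (141 and 72 UMIs), a log2 ratio of -1.55, where 1.32% of genes were called lower. In macrophage-like cells, where Spp1 was higher, all 4 measured ligands of the list were below 0, with a median log2 ratio of -0.34 against -0.03 for all genes there.

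Of 12 genes of hyaluronan and other Cd44 ligands, 12 pairs passed, 6 above and 6 below 0. Cemip2, a hyaluronan-degrading enzyme, was called lower in fibroblast-like cells, at 122 and 53.4 CPM (70 and 49 UMIs; log2 ratio -1.12), where 2.08% of genes were called lower. Of 10 enzymes that act on osteopontin, 28 pairs passed, 15 above and 13 below 0. Acp5, the tartrate-resistant phosphatase that removes phosphates from osteopontin, was called higher in dendritic cell-like cells, at 31.5 and 73.2 CPM (41 and 157 UMIs; log2 ratio 1.10), where 0.383% of genes were called higher. The 16 integrin adaptors and Cd44 linkers, such as talin and ezrin, gave 158 pairs, 70 above and 88 below 0, with none called. The 4 relatives of osteopontin in its gene family and the Cd44 splicing regulators Esrp1 and Esrp2 passed the minimum in no class.

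Some genes followed the members across the 15 classes. By Pearson correlation of log2(CPM + 5), the genes most like Spp1 were Sema3c (0.917), Gm16685 (0.913), Clmn (0.907), Glis3 (0.907) and Bicc1 (0.905), and those most like Cd44 were Nfkbie (0.951), Efhd2 (0.942), Unc119 (0.927), Gsap (0.924) and Malt1 (0.916). For Itgav the first was Gm13684 (0.943), which overlaps Itgav on the other strand, followed by Cxadr (0.915), Cdh1 (0.904), Klf6 (0.899) and Slc35g1 (0.898). Itgb1 was most like Phip (0.878), Sept7 (0.875), Baz1b (0.870) and Smc1a (0.861). Itgb3 was most like Ripor2 (0.900), Grk6 (0.870), Tmem243 (0.865), Zfx (0.863) and Ntng2 (0.861), and Itgb5 was most like Itsn1 (0.863), Mmp14 (0.831), Rassf8 (0.825) and Rrbp1 (0.790). The 15 points share libraries, free RNA and depth, and the correlations are descriptions.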

How the data were processed

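The authors deposited raw UMI counts for each gene in each barcode; Cell Ranger 4 is named in the file headers. Build mm10 comes from the submitters' processing notes, and the annotation was not given in the sources used here. Barcodes with at least 500 UMIs, 200 genes and at most 50% mitochondrial UMIs were kept, and the highest Scrublet scores (0.8% per 1000 cells) were removed as doublets: 715 in control and 804 in haplodeficient cells. Cells of both libraries were clustered together on 2000 variable genes without the 6 members, with 30 components, 15 neighbours and Leiden resolution 1 (scanpy 1.11.5, leidenalg 0.10.2). No author annotation was used. The 40 clusters were named from marker lists with at least 3 markers in at least 10% of cells at 2-fold; 7 stayed unnamed (10.7% of control, 14.2% of haplodeficient cells). Names are rebuilt and can differ from the study's.

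UMIs were summed per class and library. Levels have exact Poisson, ratios exact conditional binomial and shares exact Clopper-Pearson 95% intervals (scipy 1.17.1), which cover counting error only. Classes whose ratio interval excluded 1 were counted for the members only, without a share of all genes beside them. Levels are per UMI, not per length, and were not compared between genes. A count of 0 allows up to 3. The script was tested on simulated data. Members, lists and markers were chosen with earlier results of these data known. The scoring of names, the platelet genes, and the alternatives without mitochondrial genes and with thinned cells were chosen after seeing the data. The 6 members were named in every class; list genes were named when called (at most 3 per list, class and direction), with the 5 most correlated genes per member among genes of at least 50 CPM in a class, some of which are not reported here. No sequences were used.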

Additional observations from a re-analysis of the deposited data

How the results depend on the processing

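No paired analysis was possible because each group had 1 library, so no library could be left out either. Neither of the 2 called log2 ratios of member genes reversed under any alternative run. The called pairs of the listed genes Itga6, Cemip2, Thbs1 and Acp5 were not part of that check. The count of member and class pairs called higher (1) was 3 with doublets kept, adding Spp1 in monocyte-like and T cell-like cells, 2 with each cell named alone, 7 (over 14 classes) with each library clustered on its own, and 0 with the same cluster weights in both libraries. The count called lower (1) was 0 with a mitochondrial limit of 25% and with at least 1000 UMIs, 3 with each cell named alone, and 2 with each library clustered on its own. With doublets kept it was 1, but the pair was Cd44 in fibroblast-like cells, not Itgb3 in T cell-like cells. The cause of these changes was not tested. The free Spp1 ratio (1.11) was 1.41 in barcodes of 1 to 50 UMIs and 0.919 in barcodes of 10 to 100 UMIs. The classes with Spp1 above its free level (5) were 4 or 5 under every alternative run. Of 1344 recomputed log2 ratios 202 (15.03%) moved beyond their counting interval, as did 594 of 2148 levels (27.7%). The 1344 ratios include the alternatives that lowered or dropped the minimum. These change only which pairs are read and could not move a ratio. Depth limits Itgb3 most, with 300 UMIs in control cells, and classes with fewer than 50 control cells (B, NK and urothelium-like) were not compared.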
